A study of Homo sapiens with 4 samples.

Results

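The 8 genes described here encode integrin subunits: the alpha chains ITGA2, ITGA3, ITGA5, ITGA6 and ITGAV and the beta chains ITGB1, ITGB4 and ITGB5. They were taken as a fixed list, 8 of the 19974 protein-coding genes on chromosomes 1 to 22 and X in the RefSeq gene table. The list was chosen with earlier results of these data known. The chromatin of these genes was read from the peaks that overlap each gene or the 10 kb on either side of it. Single-nucleus chromatin accessibility (scATAC-seq, in which a transposase cuts open DNA) had been measured in Panc1, a human cell line of pancreatic ductal adenocarcinoma, taken from transplanted mice. The Inflachromene group held 2 libraries (mice 11 and 35) and the Carrier group 2 libraries (mice 12 and 31). Inflachromene is a small molecule that binds the chromatin proteins HMGB1 and HMGB2, and the Carrier libraries are titled as controls. All 4 libraries are of the same cell line, and the tissue label of all 4 is pancreas. The dose, route and length of treatment, the strain, sex and age of the mice, and whether host nuclei were removed were not stated in the labels used here. A library is 1 mouse. The p-values below rest on the spread between the 2 mice of a group, estimated in part from all other features in the same test.

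Integrins sit in the cell membrane as pairs of an alpha and a beta chain. The pair binds proteins of the extracellular matrix outside the cell and, through adaptors such as talin and kindlin, the actin cytoskeleton inside it. Integrin signals pass through focal adhesion kinase and SRC-family kinases. In pancreatic ductal adenocarcinoma, a cancer with a dense collagen-rich stroma, integrins are known for attachment, migration and survival of the carcinoma cells. ITGB1 is the partner of ITGA2, ITGA3 and ITGA5 and one of the partners of ITGA6 and ITGAV. ITGB4 pairs with ITGA6 alone and ITGB5 with ITGAV alone.

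Between 27088391 and 39947056 counts lay in the peaks of a library, on 2039 to 5186 barcodes, of which 939 to 2070 were deep (at least 2000 counts). Some libraries shared barcodes. Inflachromene 11 and Carrier 12 had 1209 barcode sequences in common, Carrier 12 and Carrier 31 had 357, and Inflachromene 11 and Carrier 31 had 155, where each pair with Inflachromene 35 had 25 to 29. Of the 1209, 17 were deep in Inflachromene 11 and 1125 in Carrier 12, with a median of 158 counts in Inflachromene 11 and 16638 in Carrier 12. Barcodes found in more than 1 library held 3.26% of the counts of Inflachromene 11, 1.34% of Inflachromene 35, 58.5% of Carrier 12 and 61.8% of Carrier 31. The tests use all barcodes, and values with deep barcodes only or without the shared ones stand beside the results of the 8 genes that they move most. Of the markers of the labelled cell type, 4 of 6 epithelial genes had a promoter region, defined below, in every library (EPCAM, KRT18, KRT19 and CDH1). All 4 were taken at a gene end, which can be the end away from the start, so they are not read as open promoters. Their summed accessibility was 86.2 and 102 CPM in the Inflachromene libraries and 107 and 87.3 CPM in the Carrier libraries. The keratin genes KRT7 and KRT8 had no promoter region but had open regions in their gene windows. KRT7 had 22.2 and 29.8 CPM there in the Inflachromene libraries and 19.3 and 16.95 CPM in the Carrier libraries (log2 fold change 0.52, edgeR p 0.0159, adjusted p 0.978). It was the highest of the epithelial windows, where the others ran from -0.18 for KRT19 to 0.23 for KRT8, whose groups overlap. The epithelial promoter regions ran from -0.34 for CDH1 to 0.12 for KRT18. That of EPCAM (-0.19) was lower in both Inflachromene libraries than in both Carrier libraries. Mesenchymal genes had 3 of 4 promoter regions (ZEB1, CDH2 and FN1, not VIM), with a summed 159.8 and 162 CPM in the Inflachromene libraries and 155 and 171 CPM in the Carrier libraries. No endothelial (0 of 5), acinar (0 of 4) or endocrine (0 of 3) marker had a promoter region, although 4 endothelial, 2 acinar and 1 endocrine gene had an open region in the gene window. Leukocyte markers had 3 of 7 promoter regions, those of ITGB2 and CD3E taken at a gene end. Their sum was 69.6 and 90.3 CPM in the Inflachromene libraries and 91.6 and 69.4 CPM in the Carrier libraries.

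Promoter sequences are shown for 5 of the genes: ITGA2 and ITGA5, whose promoters differed most between the groups, and ITGB1, ITGAV and ITGB5, which have more than 1 start in RefSeq with unequal accessibility. Each run holds the 250 bases before a start and the first 10 after it, from RefSeq on GRCh38.p14, written 5′ to 3′ on the strand of the gene. Capitals mark letters of 5 motifs searched on both strands: TGANTCA (AP-1), GGGCGG (SP and KLF factors), GGAATG (TEAD), CCGGAA (ETS) and TATAAA (the TATA box). No 2 motifs overlap in these runs, except the TATA letters on both strands of the inner ITGB1 start. ITGA2 lies at chr5:52989102-52989361 (plus strand), ITGA5 at chr12:54419257-54419516 (minus), the outer ITGB1 start at chr10:32958221-32958480 and its inner start at chr10:32935549-32935808 (both minus), the outer ITGAV start at chr2:186589806-186590065 and its inner start at chr2:186599955-186600214 (both plus), and the outer ITGB5 start at chr3:124901409-124901668 and its innermost start at chr3:124887356-124887615 (both minus).
ITGA2: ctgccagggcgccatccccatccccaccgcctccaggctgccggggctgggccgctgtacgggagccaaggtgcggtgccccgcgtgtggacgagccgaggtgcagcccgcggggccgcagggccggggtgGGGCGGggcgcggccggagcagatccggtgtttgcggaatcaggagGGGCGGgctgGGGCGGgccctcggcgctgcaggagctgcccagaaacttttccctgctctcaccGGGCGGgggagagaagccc
ITGA5: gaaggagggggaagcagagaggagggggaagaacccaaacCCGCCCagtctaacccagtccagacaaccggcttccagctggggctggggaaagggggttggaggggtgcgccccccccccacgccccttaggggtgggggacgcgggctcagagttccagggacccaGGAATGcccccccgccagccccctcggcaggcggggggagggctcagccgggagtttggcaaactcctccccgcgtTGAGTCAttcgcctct
ITGB1 outer: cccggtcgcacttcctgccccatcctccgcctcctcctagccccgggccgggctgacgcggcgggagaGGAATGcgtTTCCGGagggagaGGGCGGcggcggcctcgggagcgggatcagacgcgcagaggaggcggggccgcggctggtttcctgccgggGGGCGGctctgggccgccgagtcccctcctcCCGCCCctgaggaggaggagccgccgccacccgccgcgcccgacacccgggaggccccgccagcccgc
ITGB1 inner: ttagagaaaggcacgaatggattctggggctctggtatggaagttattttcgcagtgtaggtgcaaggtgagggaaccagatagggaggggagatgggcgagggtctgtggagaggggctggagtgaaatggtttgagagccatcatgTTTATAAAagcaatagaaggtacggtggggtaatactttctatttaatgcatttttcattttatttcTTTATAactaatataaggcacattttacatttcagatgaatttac
ITGAV outer: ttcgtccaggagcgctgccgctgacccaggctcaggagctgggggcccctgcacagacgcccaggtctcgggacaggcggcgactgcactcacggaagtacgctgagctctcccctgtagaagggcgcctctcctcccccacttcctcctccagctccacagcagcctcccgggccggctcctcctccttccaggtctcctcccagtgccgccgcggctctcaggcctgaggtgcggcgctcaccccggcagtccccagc
ITGAV inner: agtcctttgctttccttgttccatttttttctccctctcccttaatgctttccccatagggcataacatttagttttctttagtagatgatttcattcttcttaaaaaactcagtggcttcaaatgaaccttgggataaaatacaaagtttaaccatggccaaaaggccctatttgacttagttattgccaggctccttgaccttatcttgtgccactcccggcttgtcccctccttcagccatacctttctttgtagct
ITGB5 outer: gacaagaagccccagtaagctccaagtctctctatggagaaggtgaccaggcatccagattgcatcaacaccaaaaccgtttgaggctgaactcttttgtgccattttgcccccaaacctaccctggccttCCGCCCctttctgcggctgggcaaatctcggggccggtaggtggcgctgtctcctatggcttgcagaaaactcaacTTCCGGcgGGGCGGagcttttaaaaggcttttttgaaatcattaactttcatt
ITGB5 innermost: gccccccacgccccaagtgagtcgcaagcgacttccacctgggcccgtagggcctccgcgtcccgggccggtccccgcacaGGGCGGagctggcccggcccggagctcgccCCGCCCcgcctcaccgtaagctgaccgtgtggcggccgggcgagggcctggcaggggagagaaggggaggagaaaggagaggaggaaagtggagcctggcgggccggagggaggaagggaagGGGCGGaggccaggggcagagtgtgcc

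The counts that follow are for the whole RefSeq windows, 250 bases before to 50 after a start. The AP-1 letters stood in 1 of these windows, that of ITGA5, ending on the start itself; 7.71% of the 35116 promoter windows in the table hold them. The SP and KLF letters were found 4 times in the ITGA2 window, 3 times each in the outer ITGB1 and innermost ITGB5 windows, 2 times in the outer ITGB5 window and once in that of ITGA5, and 45.0% of all windows hold them. TEAD letters (14.03% of all windows) were found in the ITGA5 and outer ITGB1 windows, and ETS letters (17.2% of all windows) in the outer windows of ITGB1 and ITGB5. ITGAV had none of the 5 motifs at either start. The windows also differ in CG pairs, whose median over all windows is 14. The outer windows of ITGB1 and ITGAV hold 39 and 23 CG pairs and had a peak in all 4 libraries. Their inner windows hold 4 and 1 and had no peak in any library. The inner ITGB1 window is the one with TATA letters, 3 times over both strands, which 11.5% of all windows hold. In ITGB5 both windows overlapped regions with peaks in all 4 libraries, but at unequal levels, which are given with that gene below. The region at the innermost window also overlaps the window of a middle start, whose sequence is not shown. A match is a run of letters and was not tested for binding.

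The 8 genes spanned a wide range of promoter accessibility. A promoter region here is the merged peak, present in all 4 libraries, that overlaps a RefSeq promoter window. For ITGA3 and ITGB4 it is the merged peak at the gene end of lower coordinate. For other genes without such a window it lies within 1000 bp of either gene end, which can be the end away from the start. Levels are CPM, counts scaled to the same total over all 12311 promoter regions, and are compared between genes per kb of region. ITGA3 had the highest mean, 160 CPM per kb, at percentile 91.6 of all promoter regions. ITGAV followed at 91.1 (percentile 61.4), ITGB1 at 72.7 (percentile 47.6), ITGA6 at 52.3, ITGB5 at 48.1, ITGA5 at 42.01, ITGA2 at 36.5 and ITGB4 at 28.9 (percentile 14.7). The median of all promoter regions was 75.6 CPM per kb, so 6 of the 8 lay below it. ITGA3, ITGAV and ITGB1 kept their places without overlap in any of the 4 libraries, as did ITGB1 above ITGA6; the neighbours from ITGA6 down to ITGB4 overlapped.

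**Figure D1:**
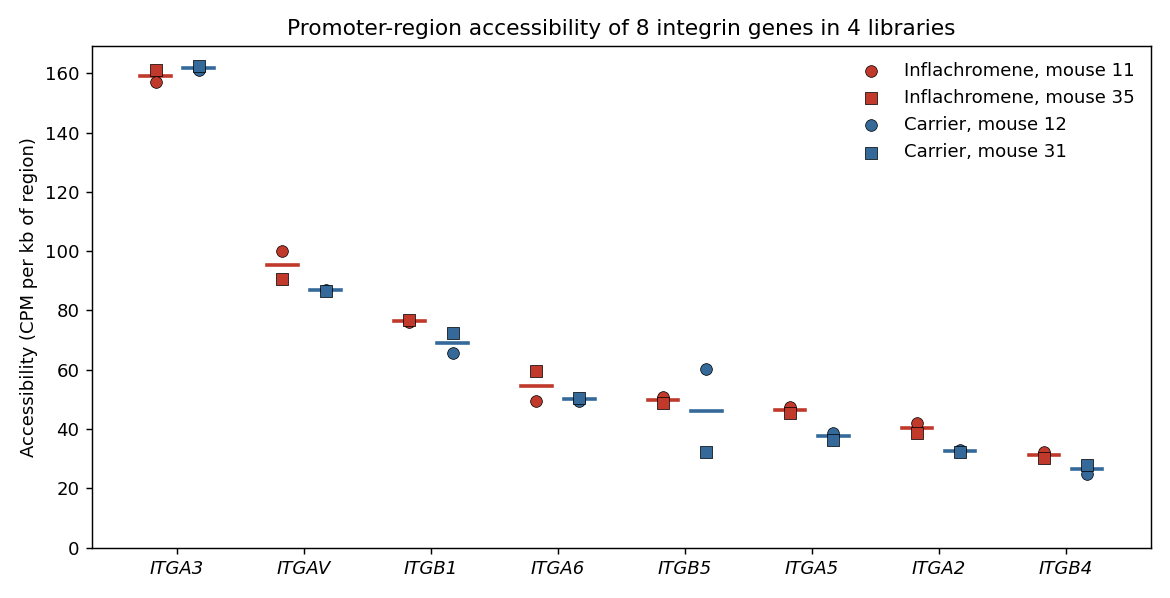
Accessibility of the promoter region of each integrin gene, in CPM per kb of region, on a linear axis from 0; each point is a library, each bar the mean of a group of 2, with Inflachromene left of Carrier. ITGA3 stands highest and ITGB4 lowest in mean level, and the Carrier libraries of ITGB5 lie far apart.

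The promoter regions of the 8 genes mostly had slightly higher values in the Inflachromene libraries, and none passed the test. The log2 fold change of Inflachromene over Carrier was above 0 for 7 of 8 (49.5% of all promoter regions), with a median of 0.14 against -0.0014 over all 12311. Both Inflachromene libraries lay above both Carrier libraries for 5 genes, ITGA2, ITGA5, ITGAV, ITGB1 and ITGB4 (17.6% of all promoter regions), and below both for ITGA3 (17.1%). This depends in part on the scale. Scaled to the total of all consensus regions (merged peaks present in every library), the groups overlapped at the same regions of ITGAV, ITGB1 and ITGA3. The ITGA3 value was then 0.02. With edgeR's quasi-likelihood test, adjusted over all promoter regions, 0 of 8 passed 0.05 (0% of all), with a smallest adjusted p of 0.821, and DESeq2 also called 0 of 8 (0.195% of all). At an unadjusted p under 0.05 edgeR had 2 of 8, ITGA2 and ITGA5 (5.85% of all promoter regions, of which 3.58% higher and 2.27% lower under Inflachromene), and DESeq2 had 0. In the edgeR test of all consensus regions, the same regions of ITGA2 and ITGA5 had p 0.0849 and 0.0730. Their intervals in that test spanned 0. The 95% interval lay between -1 and 1 on the log2 scale for all 8. Without the shared barcodes 7 of 8 were still above 0, with a median of 0.10. Leaving out Inflachromene 35 or Carrier 31 gave 6 of 8.

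**Figure D2:**
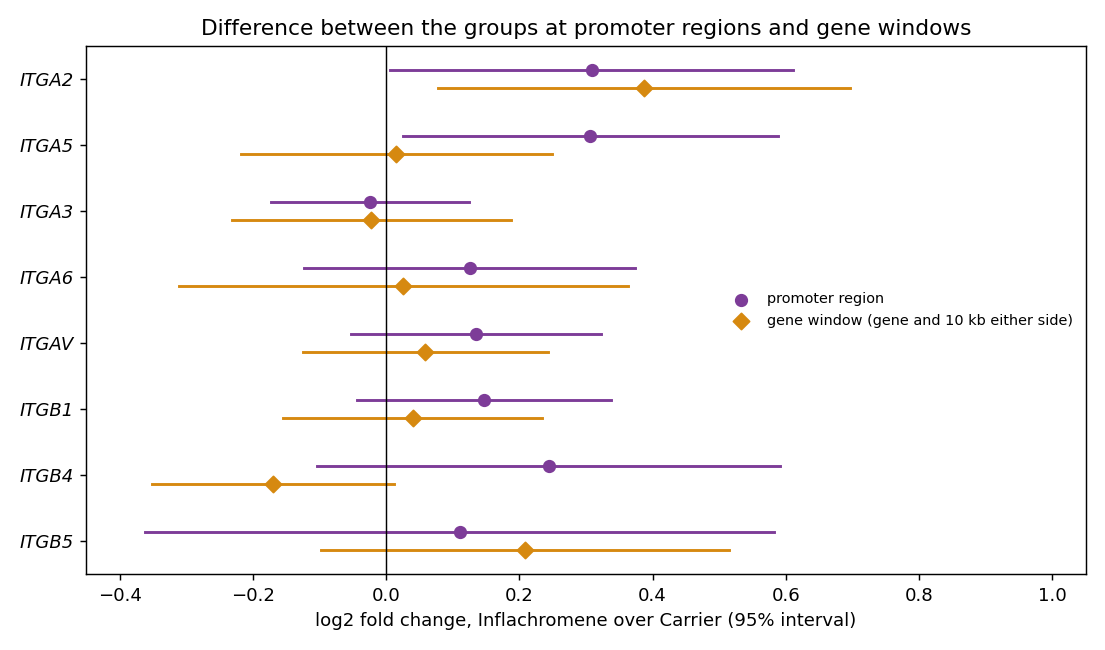
Log2 fold change of Inflachromene over Carrier with its 95% interval from edgeR, for the promoter region (circles) and the gene window (diamonds) of each gene; the line marks 0. The intervals of ITGA2 lie above 0 in both measures, those of ITGA5 only at the promoter, and ITGB4 has its promoter value above 0 and its window value below 0.

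The collagen receptor chain ITGA2 had the largest promoter log2 fold change. ITGA2 (gene ID 3673, chromosome 5, 52989352 to 53094779) had 40.2 and 36.8 CPM at its promoter in Inflachromene 11 and Inflachromene 35, against 31.4 and 30.6 CPM in Carrier 12 and Carrier 31. The groups do not overlap, and the Carrier libraries lie closer together (38.5 ± 2.40 CPM under Inflachromene and 31.03 ± 0.569 CPM under Carrier, SD, n = 2 each). On the log2 scale Inflachromene exceeded Carrier by 0.31 (standard error, SE, 0.136; 95% interval 0.0063 to 0.61), with an edgeR p of 0.0462 and an adjusted p of 0.845. With deep barcodes only it was 0.34, and without the shared barcodes 0.08 (SE 0.154); the part of the shared barcodes in the difference was not tested. In the test of all consensus regions the same region had 0.36 (SE 0.189, interval -0.06 to 0.78, edgeR p 0.0849). The region, 52988923 to 52989874, also overlaps the antisense gene ITGA2-AS1, and open DNA is not assigned to 1 of them.

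ITGA2 was also the gene whose whole window differed most. A gene window sums the consensus regions (merged peaks present in all 4 libraries) over the gene and 10 kb either side, in CPM of all 16451 windows. ITGA2 had 37.8 and 48.8 CPM in Inflachromene 11 and Inflachromene 35, against 32.1 and 34.3 CPM in Carrier 12 and Carrier 31, a log2 fold change of 0.39 (SE 0.131; edgeR p 0.0211, adjusted p 0.978). Inflachromene 35 stands highest. Without Inflachromene 11 the value was 0.55 with an edgeR adjusted p of 0.0207, the lone library being assumed to vary like the other group; in that fit 1.59% of all windows passed. Without Inflachromene 35 it was 0.19, and without the shared barcodes 0.26 (edgeR adjusted p 0.948). All 6 consensus regions of ITGA2 had a value above 0, from 0.18 to 0.51. Of the 5 outside the promoter, 4 lie in the gene body and 1 in the flank over MOCS2, and Inflachromene 35 was highest in each. The region 53037264 to 53038182 in the gene body had 6.86 and 9.67 CPM in Inflachromene 11 and Inflachromene 35, against 5.43 and 6.19 CPM in Carrier 12 and Carrier 31, on the scale of all consensus regions (0.51, SE 0.256); the groups do not overlap. The surrounding 10 Mb, without the window of the gene, had a log2 ratio of 0.05. An offset was also tried, the summed counts of the whole 10 Mb with the gene's own regions included, in place of the library total. With it the window value of ITGA2 was 0.30.

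ITGA5, which pairs with ITGB1 as the main fibronectin receptor, had nearly the same promoter difference, while its other regions had values below 0. At the promoter, ITGA5 (gene ID 3678, chromosome 12, 54395261 to 54419266) had 43.3 and 41.3 CPM in Inflachromene 11 and Inflachromene 35, against 35.2 and 33.1 CPM in Carrier 12 and Carrier 31. On this scale of all promoter regions each pair is tight and the groups do not overlap (42.3 ± 1.42 CPM under Inflachromene and 34.2 ± 1.48 CPM under Carrier, SD, n = 2 each). Its log2 fold change was likewise 0.31 (SE 0.126; edgeR p 0.0358, adjusted p 0.821). It was 0.18 with deep barcodes only and 0.09 without the shared barcodes. On the scale of all consensus regions the Inflachromene libraries lay further apart at the same region, at 26.3 and 22.1 CPM. The Carrier libraries had 18.4 and 19.2 CPM there (0.36, SE 0.178, interval -0.04 to 0.76, edgeR p 0.0730). The remaining 3 consensus regions of ITGA5 had values from -0.27 to -0.01, so that the whole window had 44.3 and 51.8 CPM in the Inflachromene libraries and 46.4 and 48.7 CPM in the Carrier libraries, with a log2 fold change of 0.02 (SE 0.099) whose sign turned with the setting. GPR84-AS1 overlaps all 4 regions of ITGA5. The lowest value was that of the flank region 54393866 to 54394876, with 8.38 and 8.35 CPM in the Inflachromene libraries and 9.27 and 10.9 CPM in the Carrier libraries on the scale of all consensus regions (-0.27, SE 0.215), where both Inflachromene libraries lie below both Carrier libraries.

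For the laminin receptor chains ITGA3 and ITGA6, the intervals at the promoter and over the window spanned 0. ITGA3 (gene ID 3675, chromosome 17, 50056110 to 50090481) had 146 and 149.9 CPM at its promoter region in Inflachromene 11 and Inflachromene 35, against 149.9 and 151 CPM in Carrier 12 and Carrier 31. The 2 nearest of these libraries were equal to the first decimal. Its log2 fold change of -0.02 had the narrowest interval of the 8 promoters, -0.17 to 0.12, and the value was 0.05 when barcodes with a count were used. Its window held 9 consensus regions, 4 of them above 0. The region 50087156 to 50088087 in the gene body had 23.7 and 19.98 CPM in the Inflachromene libraries and 24.8 and 25.9 CPM in the Carrier libraries on the scale of all consensus regions (-0.21, SE 0.174). Both Inflachromene libraries lie below both Carrier libraries there. ITGA6 (gene ID 3655, chromosome 2, 172427336 to 172506459) had 52.0 and 62.7 CPM at its promoter in Inflachromene 11 and Inflachromene 35, against 52.1 and 53.2 CPM in Carrier 12 and Carrier 31. Only Inflachromene 35 stands apart there, and the groups overlap. The log2 fold change of 0.13 (SE 0.111, edgeR adjusted p 0.951) was -0.02 without that library. The called peak also covered 1013 bp in Inflachromene 35, against 848 bp in Inflachromene 11 and 881 and 867 bp in Carrier 12 and Carrier 31.

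The strongest region of ITGA6 was not its promoter but a region in the gene body, 172441767 to 172442721, centred 14908 bp downstream of the outer start. It had 31.2 and 50.7 CPM in Inflachromene 11 and Inflachromene 35, against 42.7 and 32.9 CPM in Carrier 12 and Carrier 31, on the scale of all consensus regions. The libraries within a group differ more than the groups do, and the log2 fold change was 0.12 (SE 0.231, edgeR adjusted p 0.9996). ITGA6 and ITGB4 were the 2 genes whose promoter region was not the strongest of the window.

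ITGAV, the alpha chain of the receptors for vitronectin and other RGD-containing ligands, had promoter levels whose order across the libraries depended on the scale. At its outer promoter, ITGAV (gene ID 3685, chromosome 2, 186590056 to 186680901) had 92.8 and 84.0 CPM in Inflachromene 11 and Inflachromene 35, against 80.6 and 80.3 CPM in Carrier 12 and Carrier 31. On this scale of all promoter regions both Inflachromene values are the higher ones. The log2 fold change was 0.13 (SE 0.084, interval -0.05 to 0.32, edgeR p 0.141, adjusted p 0.906). It was 0.062 without Inflachromene 11 and 0.21 without Inflachromene 35. On the scale of all consensus regions the groups overlap at the same region. Inflachromene 11 and Inflachromene 35 had 56.3 and 44.9 CPM there, against 42.2 and 46.6 CPM in Carrier 12 and Carrier 31. That region held 69.2% of the accessibility of the ITGAV window, the largest promoter share of the 8 genes. The window as a whole differed by 0.06 (SE 0.078), by 0.0044 without the shared barcodes and by 0.0032 without Carrier 31. The promoter region also overlaps LOC124906105.

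The common beta chain ITGB1 (gene ID 3688, chromosome 10, 32900318 to 32958230) had 77.2 and 77.9 CPM at its promoter in Inflachromene 11 and Inflachromene 35, against 66.5 and 73.6 CPM in Carrier 12 and Carrier 31. The Inflachromene libraries are nearly equal and above both Carrier libraries. They differ by 0.15 on the log2 scale (SE 0.085; edgeR p 0.117, adjusted p 0.890), with deep barcodes only 0.13, and 0.26 without the shared barcodes. Without Carrier 12 it was 0.075, and without Carrier 31 it was 0.22. On the scale of all consensus regions the groups overlap at the same region. It had 46.9 and 41.6 CPM there in the Inflachromene libraries and 34.8 and 42.7 CPM in the Carrier libraries. The peak called at this promoter was also wider in the Inflachromene libraries, at 978 and 1010 bp against 889 and 907 bp in the Carrier libraries. The part of peak width in the difference was not tested. An upstream region, centred at -3817 bp from the start, had the opposite sign, -0.22 (SE 0.209), with 13.3 and 18.0 CPM in the Inflachromene libraries and 19.5 and 17.1 CPM in the Carrier libraries on the scale of all consensus regions. These groups overlap. The ITGB1 window had a value of 0.04 (SE 0.083), and 0.095 without the shared barcodes.

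ITGB4, the beta chain of hemidesmosomes, which links laminin through plectin to keratin filaments, had the lowest promoter level and opposite values at its promoter and in its gene body. Its promoter region (gene ID 3691, chromosome 17, gene at 75721459 to 75757818) had 31.6 and 29.7 CPM in Inflachromene 11 and Inflachromene 35, against 24.5 and 27.3 CPM in Carrier 12 and Carrier 31. The log2 fold change of 0.24 (SE 0.156; edgeR p 0.149, adjusted p 0.909) became 0.08 without the shared barcodes. Inside the gene, the region 75747545 to 75748474 had 23.2 and 21.9 CPM in the Inflachromene libraries and 29.7 and 25.4 CPM in the Carrier libraries on the scale of all consensus regions (-0.29, SE 0.170). Its neighbour at 75749571 to 75750474 had 24.2 and 22.7 CPM in the Inflachromene libraries and 28.4 and 27.6 CPM in the Carrier libraries (-0.26, SE 0.161). In both, the 2 Inflachromene libraries lie below the 2 Carrier libraries. The whole window had 74.3 and 69.9 CPM in the Inflachromene libraries and 82.9 and 79.3 CPM in the Carrier libraries, a log2 fold change of -0.17 (SE 0.077; edgeR p 0.0627, adjusted p 0.978). Its strongest region lies in the flank over GALK1, the galactokinase gene, at -0.17 (SE 0.177), and the surrounding 10 Mb had a log2 ratio of -0.06.

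ITGB5, the partner of ITGAV in a vitronectin receptor, had the most consensus regions. ITGB5 (gene ID 3693, chromosome 3, 124761948 to 124901418) held 11 consensus regions, and 10 of them had a value above 0. On the scale of all consensus regions, the region at its outer start had 8.51 and 9.28 CPM in Inflachromene 11 and Inflachromene 35, against 9.50 and 7.41 CPM in Carrier 12 and Carrier 31. The region over the innermost starts, centred 14525 bp downstream, had 66.4 and 56.2 CPM in the Inflachromene libraries and 67.7 and 40.2 CPM in the Carrier libraries. That region overlaps the window of the innermost start (32 CG pairs) and that of a middle start (27 CG pairs), and its counts are not assigned to 1 of them. It held more counts in every library than the region at the outer start (11 CG pairs), which is 870 bp wide. The region over the inner starts, used as the promoter region, is 2149 bp wide. It was covered by 2 peaks (1495, 1674 and 1957 bp) in Inflachromene 11, Inflachromene 35 and Carrier 12 but by 1 peak (892 bp) in Carrier 31. With all peaks the value was 0.11 (SE 0.212), and with the peaks over a start alone -0.12 (SE 0.136). Without Carrier 12 it was 0.63 (edgeR adjusted p 0.172) and without Carrier 31 it was -0.27 (edgeR adjusted p 0.694), so its sign turned both with the peaks counted and with the library left out.

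Inside ITGB5, the region 124812506 to 124813476, centred 88427 bp downstream of the outer start, had the smallest p of the 47 consensus regions of the 8 genes. It had 13.9 and 16.2 CPM in Inflachromene 11 and Inflachromene 35, against 8.74 and 10.5 CPM in Carrier 12 and Carrier 31, on the scale of all consensus regions. The groups are apart by more than either pair (15.1 ± 1.62 CPM under Inflachromene and 9.64 ± 1.28 CPM under Carrier, SD, n = 2 each). Its log2 value of 0.65 had an SE of 0.211 and an interval of 0.17 to 1.12 (edgeR p 0.0124, adjusted p 0.9996); it was 0.67 with deep barcodes only and 0.68 without the shared barcodes. Another region of the gene body, 124878496 to 124879473, had 39.6 and 53.3 CPM in the Inflachromene libraries and 39.0 and 34.8 CPM in the Carrier libraries (0.34, SE 0.178). The ITGB5 window as a whole had 145 and 174 CPM in the Inflachromene libraries and 153 and 122 CPM in the Carrier libraries, which overlap (0.21, SE 0.130). Its value was 0.33 without Inflachromene 11 and 0.38 without Carrier 12, but 0.073 without Inflachromene 35 and 0.045 without Carrier 31.

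**Figure D3:**
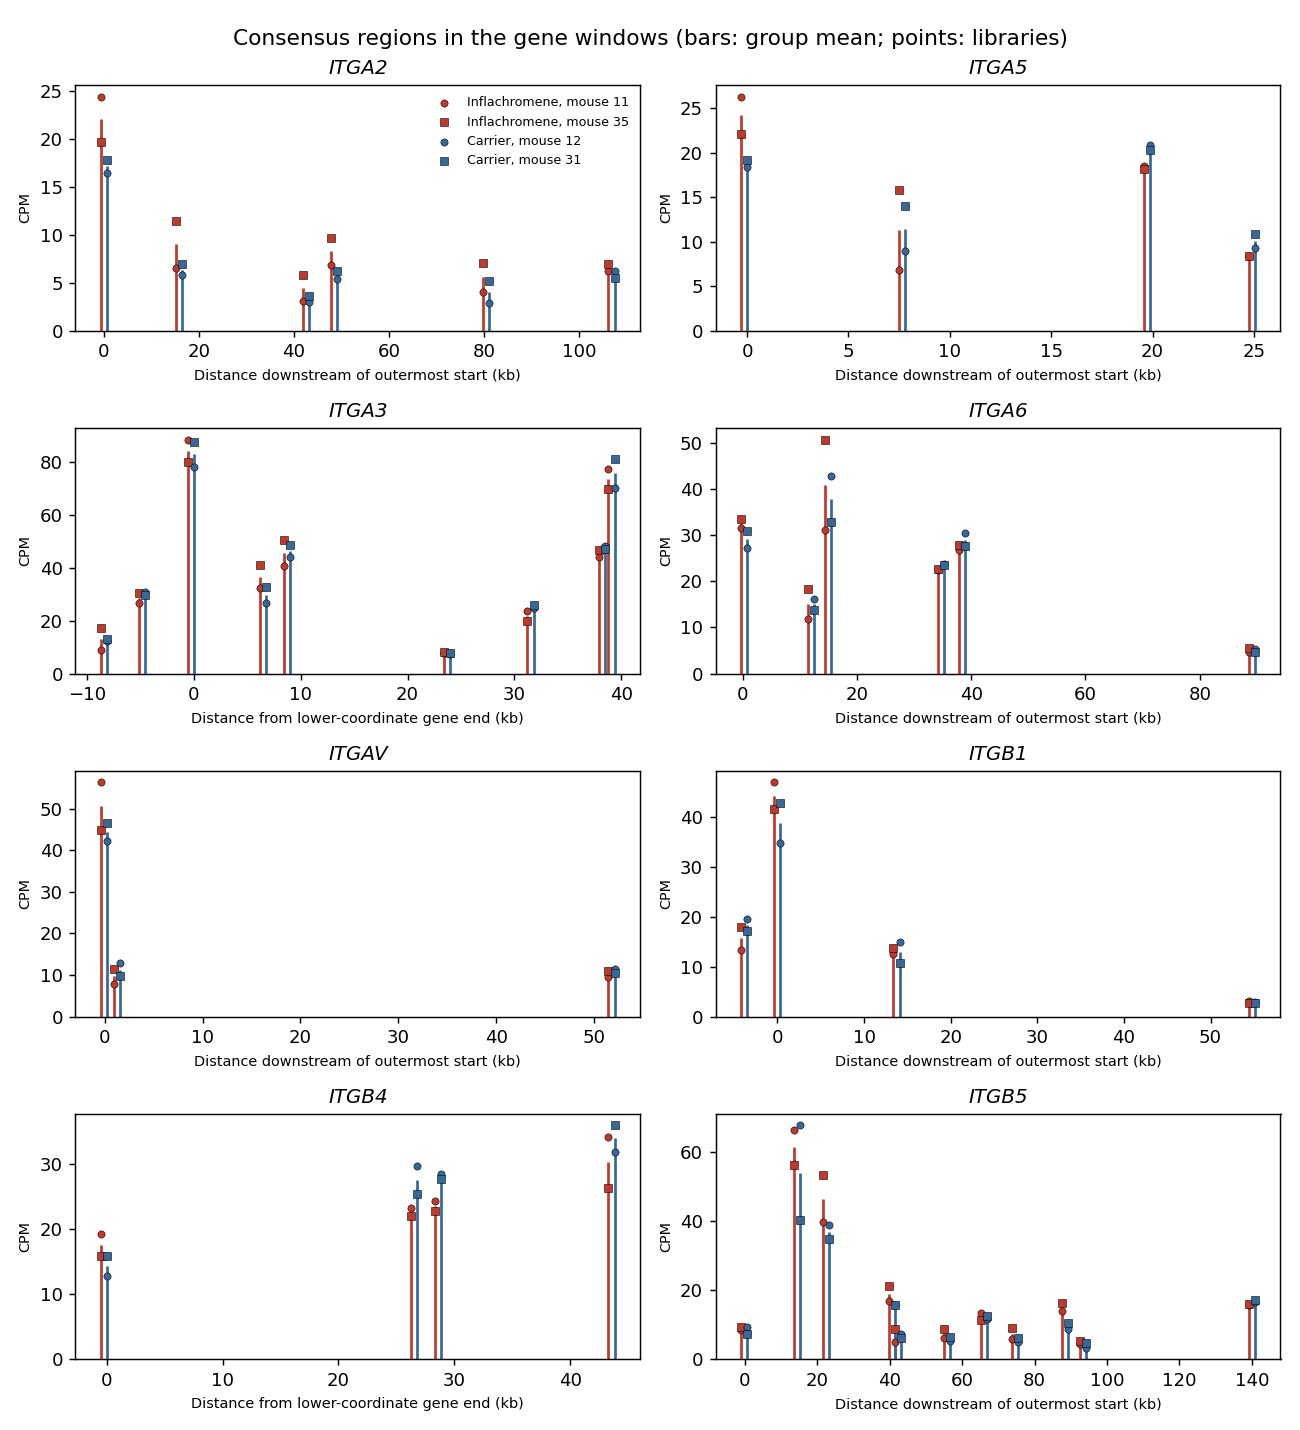
Accessibility (CPM of all consensus regions) of the 47 consensus regions in the windows of the 8 genes, by distance in kb from the outermost start or, for ITGA3 and ITGB4, from the gene end of lower coordinate; lines are group means, points are libraries, and Inflachromene is drawn left of Carrier. All regions of ITGA2 and 10 of 11 of ITGB5 have a log2 fold change above 0, and the strongest region of ITGA6 stands downstream of its start.

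Over all 47 consensus regions, values lay on both sides of 0 and moved with the library left out. Of the 47, 29 had a log2 fold change above 0 (51.7% of all 50771 consensus regions), with a median of 0.04 against 0.0092. Groups did not overlap for 10 regions that were higher under Inflachromene (14% of all) and 8 that were lower (17.5%). With edgeR 0 of 47 passed the adjusted threshold (0% of all) and 1 had an unadjusted p under 0.05 (4.48% of all, of which 3.04% higher and 1.44% lower under Inflachromene); DESeq2 also called 0 (0.0638% of all). Without Inflachromene 35 the median of the 47 was -0.0035, with 22 above 0. Without Inflachromene 11 it was 0.12, with 31 above 0. Without Inflachromene 11, 2 of 47 passed the adjusted threshold, as did 6.26% of all consensus regions: the ITGB5 region with p 0.0124 above, at 0.75 (edgeR adjusted p 0.0187), and an ITGA2 region at 53004616 to 53005599, at 0.85 (edgeR adjusted p 0.0179). With all libraries that ITGA2 region had 6.52 and 11.5 CPM in Inflachromene 11 and Inflachromene 35, against 5.79 and 6.96 CPM in Carrier 12 and Carrier 31, and its value without Inflachromene 35 was 0.02. For whole gene windows, 6 of 8 were above 0 (52.2% of all), ITGA2 and ITGAV were higher in both Inflachromene libraries (17% of all), and ITGB4 was lower in both (16.1%). The count above 0 was 3 of 8 without Inflachromene 35, 4 of 8 without Carrier 31 and 7 of 8 without Inflachromene 11. With edgeR 0 of 8 windows passed (0% of all), 1 had an unadjusted p under 0.05 (4.75% of all, of which 2.91% higher and 1.85% lower under Inflachromene), and DESeq2 called 0 (0.0547% of all).

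Peaks present in some libraries only are outside those tests. The windows of the 8 genes held 94 merged regions, with 66 and 76 peaks in Inflachromene 11 and Inflachromene 35 and 59 and 69 in Carrier 12 and Carrier 31. Of the 94, 47 had a peak in all 4 libraries, 6 in 3, 20 in 2 and 21 in 1. A peak in both Inflachromene libraries and no Carrier library was seen at 6 of 94 (3.64% of all 128195 merged regions): 2 in ITGA2 and 1 each in ITGA5, ITGA6, ITGB1 and ITGB5. The reverse was seen at 1 of 94, in ITGB1 (1.6% of all). The peak lists differ in length, from 75717 to 96240 peaks, with the longest in Inflachromene 35, so that these numbers move with how much was called.

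Per barcode, promoter accessibility did not separate the groups. Each deep barcode was thinned to 2000 counts, and the share with a count at the promoter was taken with its exact Clopper-Pearson 95% interval, which covers counting error only. ITGA3 was open in 13.3% of barcodes (interval 11.6 to 15.1) in Inflachromene 11 and 12.2% (10.8 to 13.7) in Inflachromene 35, against 12.3% (10.9 to 13.8) in Carrier 12 and 11.2% (9.24 to 13.4) in Carrier 31. ITGA2 was open in 3.005% and 2.82% of barcodes in the Inflachromene libraries and 2.03% and 3.30% in the Carrier libraries. ITGA5 was open in 3.85% and 3.01% in the Inflachromene libraries and 3.14% and 5.01% in the Carrier libraries. The share in Carrier 31 is thus the highest for ITGA2 and ITGA5, while its CPM there is the lowest, and no order is read from it. Without thinning, ITGA5 had 13.9% and 15.0% in the Inflachromene libraries and 11.3% and 22.04% in the Carrier libraries, where the median deep barcode had 18278 and 20122.5 counts in the Inflachromene libraries and 16316.5 and 34064 in the Carrier libraries. ITGB4 had 2.02% and 2.48% after thinning in the Inflachromene libraries and 1.88% and 2.66% in the Carrier libraries. No test was run, since 2 against 2 libraries allow no exact two-sided permutation p under 0.3333.

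**Figure D4:**
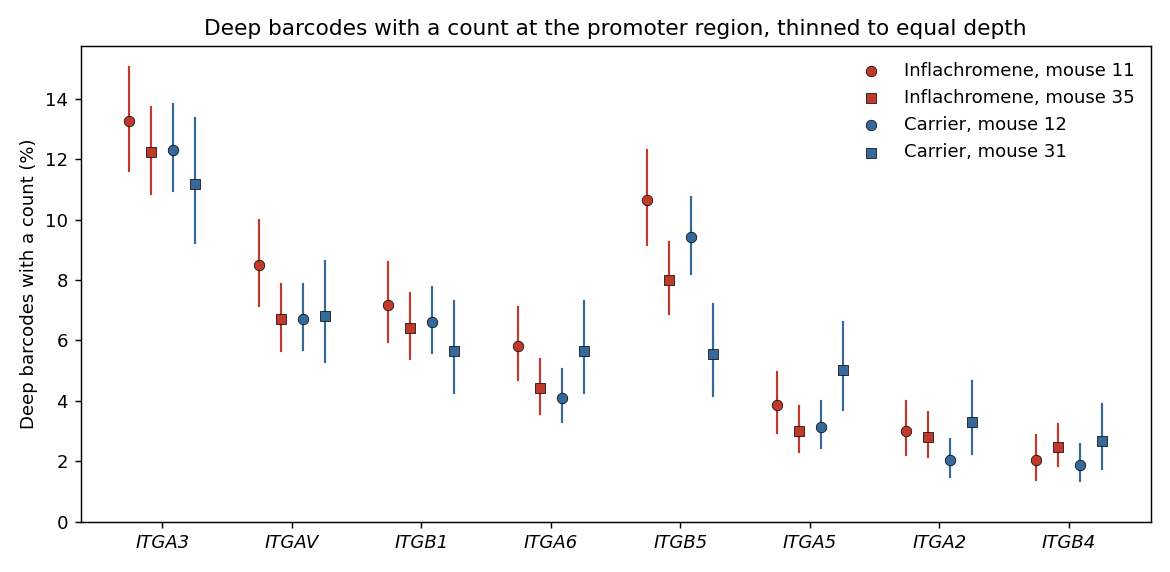
Share of deep barcodes with a count at the promoter region after thinning to 2000 counts each, in percent, with exact 95% binomial intervals; each point is a library, Inflachromene left of Carrier. For all 8 genes the Inflachromene and Carrier libraries overlap.

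Of the other 18 integrin subunits, 8 had a promoter region in all 4 libraries, and 17 had at least 1 consensus region in the window; ITGA8 had none. The promoter regions of ITGA7, ITGA9, ITGAX, ITGB2 and ITGB3 were taken at a gene end, which can be the end away from the start. Of the 8 regions 3 were above 0 (49.5% of all promoter regions), and the median was -0.03. With edgeR 0 passed the adjusted threshold in either direction (0% of all), and 2 had an unadjusted p under 0.05 (5.85% of all). Both Inflachromene libraries lay above both Carrier libraries in 0 (17.6% of all) and below both in 3 (17.1%). ITGB8, the beta chain with which ITGAV binds latent TGF-beta, had 57.1 and 59.5 CPM in Inflachromene 11 and Inflachromene 35, against 90.9 and 74.7 CPM in Carrier 12 and Carrier 31. Both Inflachromene libraries are below both Carrier libraries, with a log2 fold change of -0.51 (SE 0.104; edgeR p 0.00067, adjusted p 0.392). With barcodes carrying a count in place of counts, ITGB8 passed (-0.43, edgeR adjusted p 0.0049), and over its other settings the adjusted p lay between 0.0519 and 0.9998. ITGAX, an alpha chain of leukocytes, had 9.20 and 7.22 CPM at its gene-end region in the Inflachromene libraries and 16.6 and 13.5 CPM in the Carrier libraries (-0.88, SE 0.246, edgeR adjusted p 0.710). ITGB2, the leukocyte beta chain that pairs with ITGAX, overlapped between the groups at 24.9 and 33.5 CPM in the Inflachromene libraries and 31.2 and 22.4 CPM in the Carrier libraries. The promoter regions of ITGA1 (0.04), ITGA7 (-0.0022), ITGA9 (-0.26), ITGA10 (-0.06) and ITGB3 (0.06) had an unadjusted edgeR p above 0.05. The genes ITGA2B, ITGA4, ITGA11, ITGAD, ITGAE, ITGAL, ITGAM, ITGB6 and ITGB7 had window values from -0.51 for ITGAM, a single weak region, to 0.09 for ITGAL.

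Inside the cell, 27 of 30 adhesion adaptors and kinases had a promoter region. Of these 13 were above 0 (49.5% of all promoter regions), and the median was -0.00040. With edgeR 0 passed the adjusted threshold (0% of all), and 3 had an unadjusted p under 0.05 (5.85% of all). Both Inflachromene libraries lay above both Carrier libraries in 6 (17.6% of all) and below both in 3 (17.1%). The smallest p-values were those of LIMS1 at 0.33 (SE 0.085), ITGB1BP1 at 0.23 (0.077) and ILK at 0.24 (0.085), where LIMS1 (PINCH) and ILK are members of 1 adhesion complex and ITGB1BP1 binds the tail of ITGB1, followed by TNS3, a tensin, at -0.25 (0.127). LIMS1 had 120 and 125 CPM in the Inflachromene libraries and 90.3 and 104 CPM in the Carrier libraries. The 10 Mb around LIMS1, ITGB1BP1 and ILK had log2 ratios of 0.21, 0.19 and 0.17. With the counts of the whole 10 Mb, the gene's own regions included, as an offset, their values were 0.15, 0.05 and 0.08. The 10 Mb segments of the 8 integrin genes had ratios between -0.06 and 0.05.

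Of 24 integrin ligands, 14 had a promoter region. Of these 4 were above 0 (49.5% of all promoter regions), and the median was -0.07. With edgeR 0 passed the adjusted threshold (0% of all), and 3 had an unadjusted p under 0.05 (5.85% of all). FBN1 (fibrillin) had 9.90 and 10.9 CPM in Inflachromene 11 and Inflachromene 35, against 16.8 and 16.5 CPM in Carrier 12 and Carrier 31 (-0.68, SE 0.215; edgeR adjusted p 0.748). TNC (tenascin-C) had 29.1 and 37.9 CPM in the Inflachromene libraries and 53.9 and 42.3 CPM in the Carrier libraries (-0.52, SE 0.165; edgeR adjusted p 0.748). COL1A1, a chain of collagen I, had 137 and 141 CPM in the Inflachromene libraries and 154 and 156 CPM in the Carrier libraries (-0.16, SE 0.067). Its value was -0.04 without the shared barcodes and -0.0012 with barcodes carrying a count. Both Inflachromene libraries lay below both Carrier libraries in 5 of the 14 ligand genes (17.1% of all promoter regions), FBN1, TNC, COL1A1, SPP1 and NID1, and above both in none. The libraries of COL1A2, the other chain of collagen I, overlapped (-0.30, SE 0.266). Fibroblast markers, which include both collagen genes, had 4 of 7 promoter regions (not LUM, DCN or COL3A1). Those of COL1A1 and COL1A2 were taken at a gene end. The 4 regions summed to 211 and 218 CPM in the Inflachromene libraries and 244 and 236 CPM in the Carrier libraries. The part of fibroblast markers in the ligand values was not tested.

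**Figure D5:**
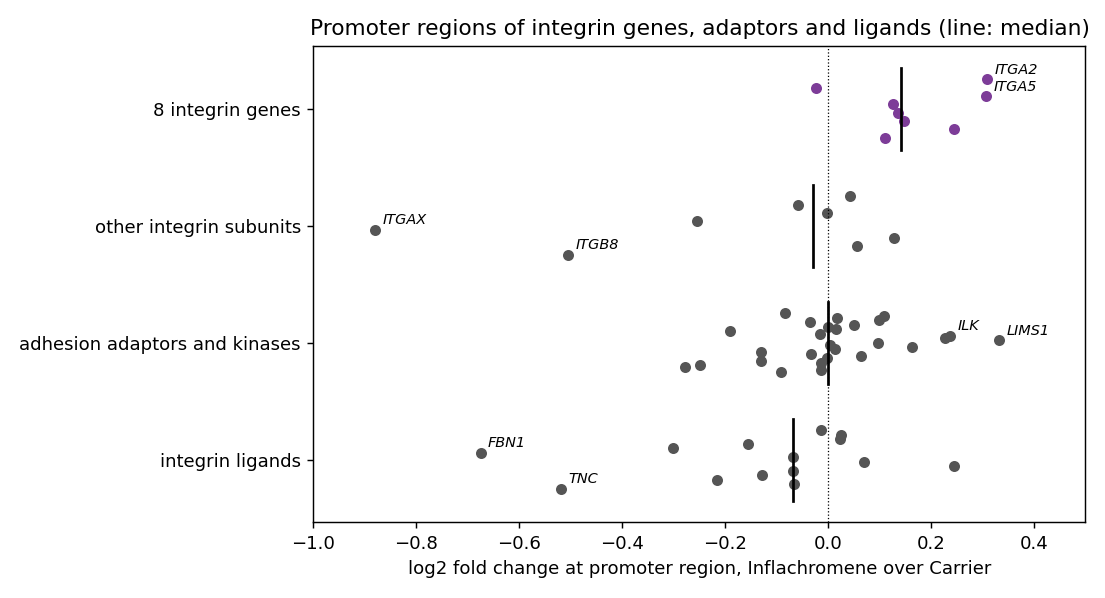
Log2 fold change of Inflachromene over Carrier at the promoter region of the 8 integrin genes (purple) and of the members of 3 further lists with a promoter region (grey); each point is a gene and each vertical line the median of its list. The medians are 0.14 for the 8 genes, -0.03 for other integrin subunits, -0.00040 for adaptors and kinases and -0.07 for ligands.

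Promoters most like ITGA5, ITGB1 and ITGB4 over the 4 libraries were found by the Euclidean distance of log2 CPM centred on each gene. For ITGA5 they were SNX7 (distance 0.0154) and the region shared by SUPT7L and SLC4A1AP (0.0325), with 57 promoters within 0.1. For ITGB1 they were the region shared by BAG5 and COA8 (0.00863) and MCM6 (0.0135), with 659 within 0.1. For ITGB4 they were SRSF7 (0.0268) and the region shared by HADHA and HADHB (0.0293), with 139 within 0.1. With 4 libraries many promoters follow the same pattern, as the 659 for ITGB1 show.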

How the data were processed

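Per the labels' protocols, the libraries come from isolated nuclei and a 10x Chromium kit for single-cell ATAC. For each library the authors deposited a peak list and a matrix that gives, for each peak and barcode, a whole-number count without normalization, made with Cell Ranger ATAC 2.1.0 per the file headers; the submitters' processing notes also name Cell Ranger ARC and GRCh38, while settings were not stated in the labels used here. Peaks were called in each library alone. Between 82.4% and 84.9% of the matrix entries were even numbers, so that 2 counts are often 1 molecule.

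Groups follow the treatment labels. On chromosomes 1 to 22 and X, peaks sharing 1 bp or more were merged, and the 50771 of 128195 merged regions with a peak in all 4 libraries (median width 936 bp) were kept as consensus regions, which hold 83.1% to 89.8% of a library's counts. Counts were summed over all barcodes of a library. Of the 12311 genes with a promoter region, 9990 took it from RefSeq's promoter windows (GRCh38.p14). Another 2321, including ITGA3 and ITGB4, took it from within 1000 bp of either gene end, without regard to strand. Of several regions the highest mean over all libraries was taken. The tables used hold no exons, so regions are placed only in a gene body or flank. A library's sums depend on the extent of its own peak calls: peaks covered 67.0 and 82.4 Mb in Inflachromene 11 and Inflachromene 35 and 67.2 and 64.9 Mb in Carrier 12 and Carrier 31.

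Regions, promoter regions and gene windows were each tested over the whole table with edgeR 4.0.16 in R 4.3.3 (TMM, filterByExpr, quasi-likelihood F test, Benjamini-Hochberg, threshold 0.05); filterByExpr removed none of the 8 genes. Standard errors and intervals come from the quasi-likelihood statistic. CPM use TMM factors and the total of the table named, so that levels, fold changes and p-values of a region differ between tables. Whether the groups overlap at a region can differ too. DESeq2 1.42.0 was the other tool. The scripts were tested on simulated data. The alternatives were DESeq2's size factors and test, other filters, deep barcodes, barcodes with a count, an offset per 10 Mb, other windows and leaving out each library; those on shared barcodes and on peaks over a start were chosen after seeing the data. The 8 genes and the lists were chosen with earlier results of these data known. Named were the 8 genes, the 5 regions in each direction with the smallest unadjusted p, all other integrin subunits, up to 4 members of each further list by p, and the 3 promoters most like ITGA5, ITGB1 and ITGB4; the ITGB5 outer start, KRT7, SPP1, NID1 and the ITGA2 region at 53004616 to 53005599 were named after their values were seen. No doublet caller was run, since values are sums per library. Python 3.11.15 with scipy 1.17.1 was used for the rest.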

Additional observations from a re-analysis of the deposited data

How the results depend on the processing

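Over all regions, promoters and windows, the number past the adjusted edgeR threshold was 0. DESeq2 called 28 consensus regions, 24 promoter regions and 9 gene windows; barcodes with a count gave 21 promoters, the offset per 10 Mb gave 2 and peaks over a start alone gave 4. Leaving out a library gave 0 to 3180 regions, 0 to 100 promoters and 0 to 261 windows, the highest each without Inflachromene 11 (without Inflachromene 35, there were 299 regions, 48 promoters and 55 windows; without Carrier 31, 5 regions). In these fits a lone library is assumed to vary like the other group, and the cause of the larger counts was not tested. No paired analysis was possible because the groups share no mouse number.

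Of 248 alternative values for the 18 values of the 8 genes, 223 kept their sign and their side of the threshold, 24 changed sign, and 1, the ITGA2 window without Inflachromene 11 (0.55), passed the threshold. Without the shared barcodes the ITGB4 promoter had 0.08 and the ITGAV promoter 0.12. With barcodes carrying a count, ITGA3 had 0.050 at the promoter and 0.027 in the window, and the windows of ITGA5, ITGA6 and ITGB1 had -0.040, -0.010 and -0.0080. With the 10 Mb offset ITGA3 had 0.046 at the promoter and 0.018 in the window, and the ITGA5 window -0.017. The ITGA3 window without flanks had 0.0023, the ITGB1 window over every peak -0.081, and the ITGA5 window -0.081 with deep barcodes and -0.10 without the shared ones; the ITGB5 promoter had -0.12 with peaks over a start alone. Leaving out 1 library moved the promoter of ITGA3 over -0.043 to -0.0058, of ITGA6 over -0.018 to 0.25 and of ITGB5 over -0.27 to 0.63, the window of ITGA3 over -0.11 to 0.060, of ITGA5 over -0.10 to 0.12, of ITGA6 over -0.20 to 0.22 and of ITGB1 over -0.027 to 0.099, and the strongest region of ITGA6 over -0.29 to 0.42. The cause of these changes was not tested. With 2 libraries a group, small differences were not detectable at this depth. The intervals given are not adjusted over all features, so a value whose interval excludes 0 can still miss the adjusted threshold. The ITGB5 region 124812506 to 124813476, at 0.65 with an interval of 0.17 to 1.12, had an edgeR adjusted p of 0.9996.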
